A study of Mus musculus with 12 samples.

Results

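Aquaporins are the channel proteins through which water, and in some members glycerol and other small solutes, crosses cell membranes, and 5 of them were followed here in cells sorted from mouse fetal liver (FL). The 5 genes were Aqp1, Aqp3, Aqp8, Aqp9, and Aqp11, chosen by name out of 38127 genes in the counts and out of 12 genes of the aquaporin family found there. Aqp1 was selected because its level was highest in the CD31+ libraries and raised in the P2 libraries, so its levels and differences are given as a description with no test. The other 4 were picked with the results of these libraries already known, and p-values were adjusted over all genes tested.

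RNA of 12 libraries from C57BL/6 embryos was sequenced, 3 from each of 4 sorted populations. All populations were sorted as Ter119-CD45- cells, that is, without the antigens of maturing red cells and of most blood cells. At embryonic day 14.5 (E14.5), P2 cells were CD54-CD31-Kit+CD24+, CD31+ cells were CD54+CD31+, and the third population was CD54+CD31-, and at E18.5 only CD54+CD31- cells were sorted. The labels name no transgene and no treatment, the study gives independent litters as the replicates at E14.5, and nothing states what the E18.5 replicates were, so that p-values at that age may measure technical spread.

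Aquaporins assemble as tetramers in which each subunit has its own pore. Aqp1, Aqp8, and the unorthodox member Aqp11 are counted among the water channels, Aqp11 being found on intracellular membranes, whereas Aqp3 and Aqp9 are aquaglyceroporins that also pass glycerol. Aqp1 is abundant in red cells and in many endothelia, Aqp8 and Aqp9 are known from hepatocytes, Aqp9 is also the glycerol channel of mouse red cells, and Aqp3 is known from epithelia.

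The upstream sequences of Aqp1 and Aqp3 are shown because both genes stood higher in P2 than in E14.5 CD54+CD31- cells but parted in CD31+ cells, where Aqp1 was high and Aqp3 low. Each sequence is the 250 bases before the first RefSeq start listed for the gene (GRCm38.p6), 5′ to 3′ on the strand of the gene, at chr6:55336049-55336298 (plus strand) for Aqp1 and chr4:41098184-41098433 (minus strand) for Aqp3. Capitals mark CACCC or its complement GGGTG, the letters of the box bound by Krüppel-like factors.
Aqp1: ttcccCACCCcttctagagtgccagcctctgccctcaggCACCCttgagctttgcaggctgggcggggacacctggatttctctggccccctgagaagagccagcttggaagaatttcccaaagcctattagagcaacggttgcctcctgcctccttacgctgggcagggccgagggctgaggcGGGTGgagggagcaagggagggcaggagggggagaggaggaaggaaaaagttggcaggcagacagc
Aqp3: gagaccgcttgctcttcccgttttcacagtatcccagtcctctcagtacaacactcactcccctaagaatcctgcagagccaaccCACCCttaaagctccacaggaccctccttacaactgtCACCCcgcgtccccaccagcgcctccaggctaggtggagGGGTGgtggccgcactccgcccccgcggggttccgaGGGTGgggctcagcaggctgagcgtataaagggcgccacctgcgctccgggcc
CACCC on either strand occurred 3 times upstream of Aqp1 and 4 times upstream of Aqp3, and 51.3% of 27025 windows of the same length held at least 1 match. GATAA, the core letters of the GATA motif, had 0 matches in both windows and was present in 23.0% of all windows. The windows of Aqp8 and Aqp11 held 1 and 2 matches to CACCC, and that of the first start of Aqp9 held 0.

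On GRCm38, Aqp1 lies at chr6:55336432-55348555, Aqp3 at chr4:41092722-41098183, Aqp8 at chr7:123462291-123468004, Aqp9 at chr9:71110659-71168682, and Aqp11 at chr7:97724006-97738289. No exon of these 5 genes shared a base with an exon of another annotated gene. The counts are 1 value per gene, so no exonic, intronic, or UTR position within a gene was resolved.

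Total counts ranged from 40714017 to 64368883 per library. The sorted populations carried their defining markers. The summed level of 8 hepatoblast genes was 69920 to 81070 CPM (counts scaled to the same library size) in E14.5 CD54+CD31- cells, that of 8 endothelial genes was 8884 to 9421 CPM in CD31+ cells, and that of 8 erythroid progenitor genes was 2033 to 2211 CPM in P2 cells. Kit and Pecam1 (CD31) encode antigens used in the sort. Gata1, Klf1, Epor, Kit, Gfi1b, and Rhag are on a list that the study drew from these libraries. These genes are therefore not independent evidence of identity. The E18.5 CD54+CD31- libraries went partly against their liver label: 10 lung epithelium genes summed to between 9964 and 22000 CPM there and to at most 249.8 CPM in any other library, and the hepatoblast genes summed to 4143 CPM in replicate 1 against 35710 and 46100 CPM in replicates 2 and 3. Tested E18.5 differences are therefore given with and without replicate 1. In P2 replicate 2 the endothelial genes summed to 361.9 CPM, against 54.57 and 98.54 CPM in the other 2 P2 libraries.

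Aqp1, the water channel of red cells and endothelium, had the highest mean level per kilobase of exon among the 12 family genes in each population. Its level was 523.7, 535.1, and 388.1 CPM in the CD31+ libraries and 161.3, 176.5, and 145.2 CPM in the P2 libraries. In E14.5 CD54+CD31- cells it was 12.8, 28.63, and 16.57 CPM, and at E18.5 it was 398.2, 193.5, and 204.3 CPM. The 3 E14.5 populations did not overlap, whereas the highest E18.5 library lay above the lowest CD31+ library. Per kilobase of exon, Aqp1 ranked 90 of 16644 genes in CD31+ cells, 157 in E18.5 cells, 579 in P2 cells, and 5060 in E14.5 CD54+CD31- cells.

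Aqp3, an aquaglyceroporin, was highest in P2 cells. The P2 libraries held 28.13, 25.14, and 23.01 CPM, the E14.5 CD54+CD31- libraries 8.306, 11.36, and 8.458 CPM. The CD31+ libraries held 2.664, 3.123, and 1.268 CPM and the E18.5 libraries 3.351, 2.281, and 2.023 CPM. P2 libraries lay above all others, and the CD31+ and E18.5 libraries, the lowest in the order, overlapped.

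Aqp8, a water channel of hepatocytes, was close to undetected outside the CD54+CD31- cells. It had 8 to 29 counts per library in P2 cells (0.6649, 0.187, and 0.1538 CPM) and 10 to 19 counts in CD31+ cells (0.342, 0.1785, and 0.2695 CPM). In E14.5 CD54+CD31- cells it was at 8.73, 10.51, and 8.679 CPM, and in the E18.5 libraries at 6.236, 83.95, and 115.7 CPM. The single low E18.5 value was that of replicate 1, which fell below all 3 E14.5 values.

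Aqp9, the aquaglyceroporin through which hepatocytes take up glycerol, did not peak in the cells with hepatoblast markers. It was at 20.68, 19.92, and 23.41 CPM in P2 libraries and at 11.89, 9.154, and 10.18 CPM in E14.5 CD54+CD31- libraries. The CD31+ libraries gave 1.296, 2.124, and 2.615 CPM, and the E18.5 libraries 1.396, 12.84, and 18.09 CPM. All P2 values were above every other library, and the E18.5 values spanned the whole range of the E14.5 CD54+CD31- values.

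Aqp11, the intracellular member, had its highest mean in E14.5 CD54+CD31- cells. It was at 27.63, 27.97, and 27.69 CPM there, at 10.87, 10.24, and 11.32 CPM in P2 cells, and at 2.736, 2.302, and 1.585 CPM in CD31+ cells. At E18.5 the values were 2.854, 19.13, and 28.09 CPM. The 3 E14.5 populations were apart from each other, and the E18.5 libraries overlapped both P2 and E14.5 CD54+CD31- cells.

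**Figure D1:**
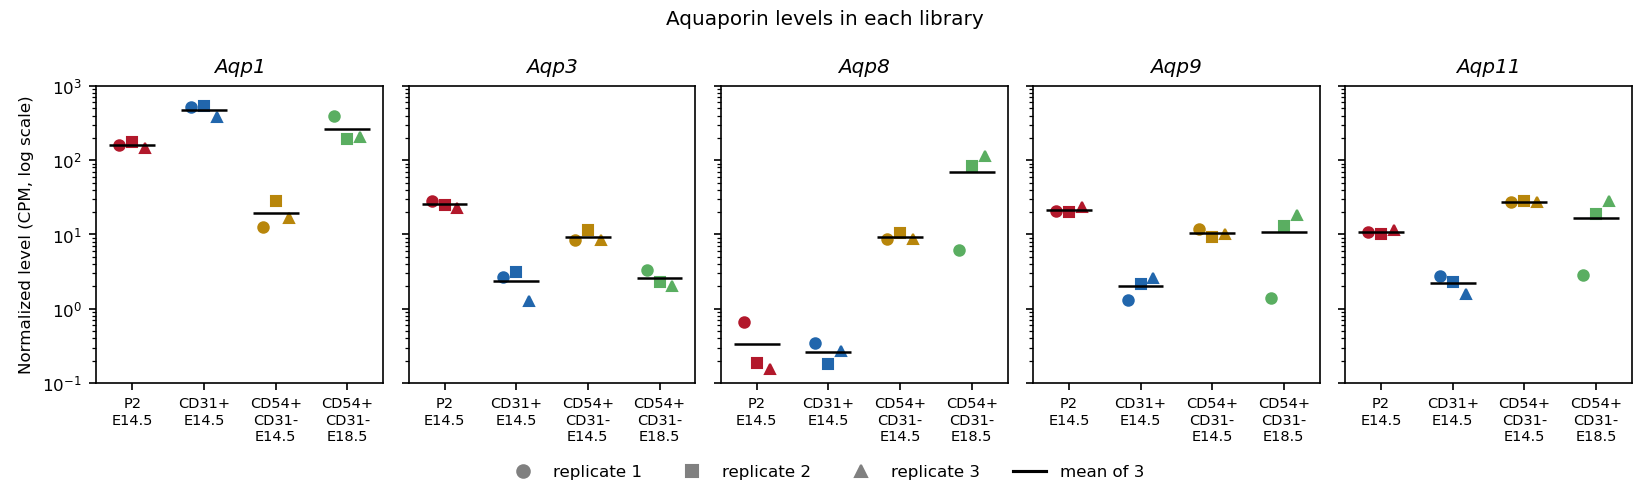
Level of each of the 5 aquaporin genes (CPM, log axis) in the 12 libraries, with 1 point per library, a symbol for each replicate number, and a bar at the mean of 3. Aqp1 is lowest in E14.5 CD54+CD31- cells, Aqp3 and Aqp9 are highest in P2 cells, and E18.5 replicate 1 lies far below the other 2 E18.5 libraries for Aqp8, Aqp9, and Aqp11.

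Levels of different genes were compared per kilobase of exon. The summed level of all 12 family genes was 82.15 ± 6.178 CPM per kilobase (SD, n = 3) in P2 cells, 186.1 ± 31.52 in CD31+ cells, 26.38 ± 4.33 in E14.5 CD54+CD31- cells, and 179.9 ± 24.15 in E18.5 CD54+CD31- cells. Aqp1 made up 98.67% ± 0.1025 of this sum in CD31+ cells and 74.52% ± 2.091 in P2 cells, where Aqp3 followed with 16.93% ± 1.326 and Aqp9 with 6.322% ± 1.047 (SD, n = 3 each). The sum in E14.5 CD54+CD31- cells was spread over 6 genes, with 27.15% ± 7.059 from Aqp1, 22.44% ± 1.205 from Aqp8, 19.39% ± 0.4308 from Aqp3, 11.36% ± 1.649 from Aqp11, 9.8% ± 2.624 from Aqp9, and 8.834% ± 1.77 from Aqp7. In that population the Aqp1 share ranged from 20.83% to 34.77% and the Aqp8 share from 21.21% to 23.61%, so Aqp1 did not lead in every library. At E18.5, Aqp1 held 55.04% ± 17.35, Aqp8 25.47% ± 20.57, and Aqp5 15.29% ± 4.893. In E18.5 replicate 1 the Aqp8 share was 1.947% and the Aqp1 share 74.85%, the lowest and the highest of the 3 libraries, respectively.

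**Figure D2:**
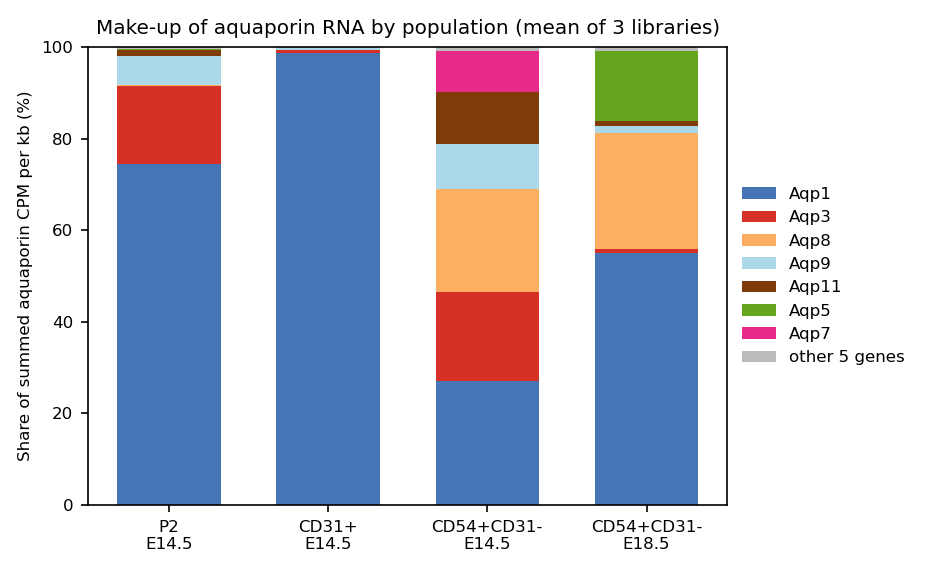
Share of each gene in the summed aquaporin level (CPM per kilobase of exon, mean of 3 libraries) in the 4 populations. Aqp1 fills 98.67% of the bar for CD31+ cells and 27.15% of the bar for E14.5 CD54+CD31- cells, whose other shares belong mainly to Aqp8, Aqp3, Aqp11, Aqp9, and Aqp7.

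The comparison of P2 with E14.5 CD54+CD31- cells sets the Kit+ population beside the epithelial one, and a gene is said to pass, rise, or fall where its Benjamini-Hochberg adjusted p in edgeR's quasi-likelihood test was below 0.05. Both aquaglyceroporins among the 5 genes rose in P2 cells. Aqp3 rose by 1.42 on the log2 scale (SE 0.26, edgeR adjusted p = 0.0006902) and Aqp9 by 1.02 (SE 0.21, edgeR adjusted p = 0.001541). Aqp8 fell by 4.83 (SE 0.47, edgeR adjusted p = 5.777e-06) and Aqp11 fell by 1.38 (SE 0.16, edgeR adjusted p = 2.536e-05). Thus 4 of the 4 members tested passed, 2 in each direction, in a comparison in which 70.0% of 15461 genes passed, 33.8% higher and 36.1% lower in P2 cells. Aqp7, an aquaglyceroporin outside the 5 genes, went the other way from Aqp3 and Aqp9 and fell by 5.02 (SE 0.50, edgeR adjusted p = 6.986e-06). The Aqp9 call depended on the libraries fitted, and with all 12 in one fit its difference of 1.04 had an edgeR adjusted p of 0.1587. Aqp1 was 3.04 higher on the log2 scale (SE 0.27) in the libraries on which it was chosen, and 2.98 higher without P2 replicate 2, in which endothelial markers were raised.

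Erythroid genes were also detected in the E14.5 CD54+CD31- libraries, where their summed level was 309.0, 490.4, and 370.2 CPM. The part of these RNAs in the aquaporin levels was not tested. Per 1000 counts of Klf1, an erythroid transcription factor gene, Aqp1 had 306.5, 369.9, and 335.0 counts in these libraries and 389.7, 412.3, and 418.7 in P2 cells. The mean ratio was 1.21 times higher in P2 cells. The Aqp1 level itself differed 8.25-fold, on values by which Aqp1 was chosen. A gene raised in P2 cells about as much as Klf1 keeps a similar ratio. The Aqp1 ratio therefore restates the 2 rises and decides nothing further. Aqp3 per 1000 Klf1 counts was 198.9, 146.7, and 171.0 in E14.5 CD54+CD31- cells and 67.99, 58.71, and 66.37 in P2 cells, the reverse of the order of the Aqp3 levels. For Aqp9 the same ratio was 284.8, 118.3, and 205.9 against 49.98, 46.53, and 67.54 (exact permutation tests, 2-sided p = 0.1 for each of Aqp3 and Aqp9, the smallest that 3 against 3 allows). Klf1 itself had a mean of 396.2 CPM in P2 cells and 56.2 CPM in E14.5 CD54+CD31- cells. A gene less raised in P2 cells than Klf1 has a lower ratio there. Aqp3 and Aqp9 are such genes, so their ratios and tests restate this and decide nothing further. These ratios were chosen after the values had been seen. In bulk libraries, fewer cells of a type and less RNA per cell cannot be told apart.

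P2 and CD31+ cells were compared next, and Aqp3, Aqp9, and Aqp11 were higher in P2 cells. Aqp3 was higher in P2 cells by 3.43 on the log2 scale (SE 0.29, edgeR adjusted p = 1.925e-06), Aqp9 by 3.39 (SE 0.24, edgeR adjusted p = 5.214e-07), and Aqp11 by 2.29 (SE 0.17, edgeR adjusted p = 9.898e-07). Aqp8 differed by 0.30 (SE 0.52, edgeR adjusted p = 0.612) at 8 to 29 counts per library, and no difference was detectable at this depth. In all, 3 of the 4 genes passed, all 3 higher in P2 cells, where 73.7% of the genes tested passed, 34.3% higher and 39.4% lower. Aqp1 was 1.59 lower in P2 than in CD31+ cells on the log2 scale (SE 0.25), the values by which it was chosen.

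Between CD31+ and E14.5 CD54+CD31- cells, the tested members differed in one direction. Aqp8 fell by 5.14 on the log2 scale in CD31+ cells (SE 0.48, edgeR adjusted p = 4.861e-06), Aqp11 fell by 3.67 (SE 0.18, edgeR adjusted p = 4.261e-08), Aqp9 fell by 2.38 (SE 0.23, edgeR adjusted p = 6.891e-06), and Aqp3 fell by 2.01 (SE 0.28, edgeR adjusted p = 0.0001081). All 4 tested members were thus lower in CD31+ cells, against a background of 65.6% of genes that passed, 31.7% higher and 34.0% lower. Aqp1 went the other way, with a level 4.63 higher on the log2 scale (SE 0.29, chosen on this level). In the CD31+ libraries the summed level of 6 granulocyte genes was 131.6, 268.4, and 571.9 CPM. That of 6 macrophage genes was 54.41, 70.06, and 100.5 CPM. Both had the same order of libraries as Aqp9 (1.296, 2.124, and 2.615 CPM). In E14.5 CD54+CD31- cells the granulocyte sums were 6.583, 114.9, and 7.101 CPM and the macrophage sums 144.3, 137.4, and 229.9 CPM. Aqp9 was at 11.89, 9.154, and 10.18 CPM there. In P2 cells, where Aqp9 was highest, the granulocyte sums were 1.857 to 3.96 CPM and the macrophage sums 5.778 to 10.08 CPM. The part of these cells in the Aqp9 level was not tested.

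**Figure D3:**
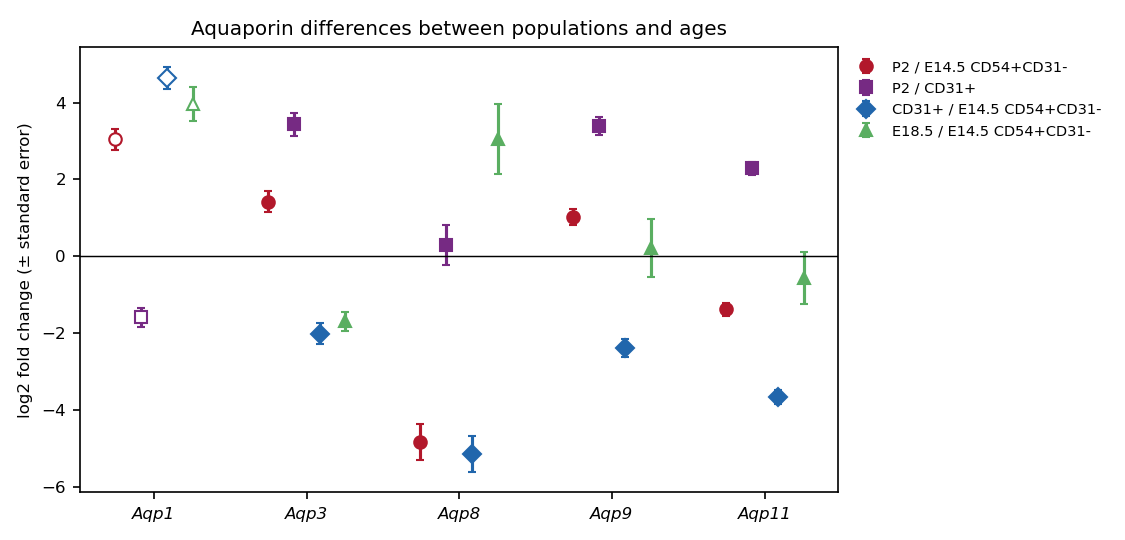
Log2 fold change of the 5 genes in 4 comparisons, with standard errors as bars. Filled symbols are tested differences, open symbols are the untested Aqp1 values, and the tested members fall in CD31+ cells against E14.5 CD54+CD31- cells while Aqp1 stands 4.63 higher.

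The same surface phenotype was available at E18.5 and E14.5. Aqp1 was 3.97 higher on the log2 scale at E18.5 (SE 0.44) and 3.54 higher without E18.5 replicate 1, values given with no test because the low E14.5 CD54+CD31- levels entered the choice of this gene. Aqp3 fell by 1.69 (SE 0.25, edgeR adjusted p = 0.001054), and without E18.5 replicate 1 it fell by 1.95 (edgeR adjusted p = 3.142e-05). Aqp8 rose by 3.05 (SE 0.91, edgeR adjusted p = 0.02145), a call that was lost when any library other than E18.5 replicate 1 was left out and that became 3.59 without that library (edgeR adjusted p = 2.021e-07). With the replicate number as a block the Aqp8 difference was 2.42 (edgeR adjusted p = 0.0958).

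Aqp9 differed by 0.22 between the ages (SE 0.75, edgeR adjusted p = 0.8086) and Aqp11 by -0.56 (SE 0.68, edgeR adjusted p = 0.4845), with standard errors larger than the differences. Without E18.5 replicate 1, Aqp9 was 0.73 higher at E18.5 (edgeR adjusted p = 0.005958), and without replicate 3 it was 0.38 lower on the log2 scale (-0.38, edgeR adjusted p = 0.6955). Aqp11 differed by -0.07 without E18.5 replicate 1 (edgeR adjusted p = 0.702). Of the 4 members other than Aqp1, 2 passed, 1 higher and 1 lower, where 69.4% of 15863 genes passed, 35.9% higher and 33.5% lower.

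Among the E18.5 libraries, Aqp8, Aqp9, and Aqp11 were low where the hepatoblast sum was low, and the highest Aqp1 and Aqp3 values were in the library with the highest lung epithelium sum. Cdh1, on the hepatoblast list, went the other way, at 946.2, 669.5, and 701.2 CPM in replicates 1, 2, and 3. The other listed hepatoblast genes were lowest in replicate 1. In replicate 1, Aqp8 was at 0.0625 of the mean of replicates 2 and 3, Aqp9 at 0.0903, and Aqp11 at 0.121, and the albumin gene Alb was at 0.0788 and the hepatocyte regulator Hnf4a at 0.109 of that mean. Blood cell genes were also low there. The 6 granulocyte genes together were at 0.227 of that mean, the 6 macrophage genes at 0.309, and the 8 erythroid progenitor genes at 0.671. Most of the erythroid sum came from Tfrc, at 107.3, 134.7, and 118.1 CPM in replicates 1, 2, and 3. Klf1 was at 2.839, 12.44, and 10.75 CPM and Kit at 9.043, 13.66, and 10.43 CPM. Each of the 8 erythroid genes was lowest in replicate 1. Aqp1 was at 2.00 times the mean of replicates 2 and 3, Aqp3 at 1.56 times, and, among the other family genes, Aqp5 at 2.02 times. The alveolar genes Sftpc and Ager were at 2.36 and 2.33 times, the 10 lung epithelium genes together at 2.19 times, the 4 mesothelial genes at 1.61 times, the 5 cholangiocyte genes at 1.49 times, and the 5 mesenchymal genes at 1.10 times. The 8 endothelial genes summed to 198.7, 223.5, and 172.9 CPM in the 3 libraries, with members in both directions, as Emcn was at 4.964, 2.968, and 1.745 CPM and Stab2 at 17.39, 42.33, and 34.62 CPM. The E18.5 libraries also held more RNA of other cell types than any E14.5 library, with cholangiocyte sums of 789.1 to 1186 CPM against at most 17.18 CPM, mesenchymal sums of 3043 to 3398 CPM against at most 176.2 CPM, and mesothelial sums of 296.1 to 497.0 CPM against at most 4.103 CPM. The part of each cell type in the levels of these aquaporins was not tested.

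**Figure D4:**
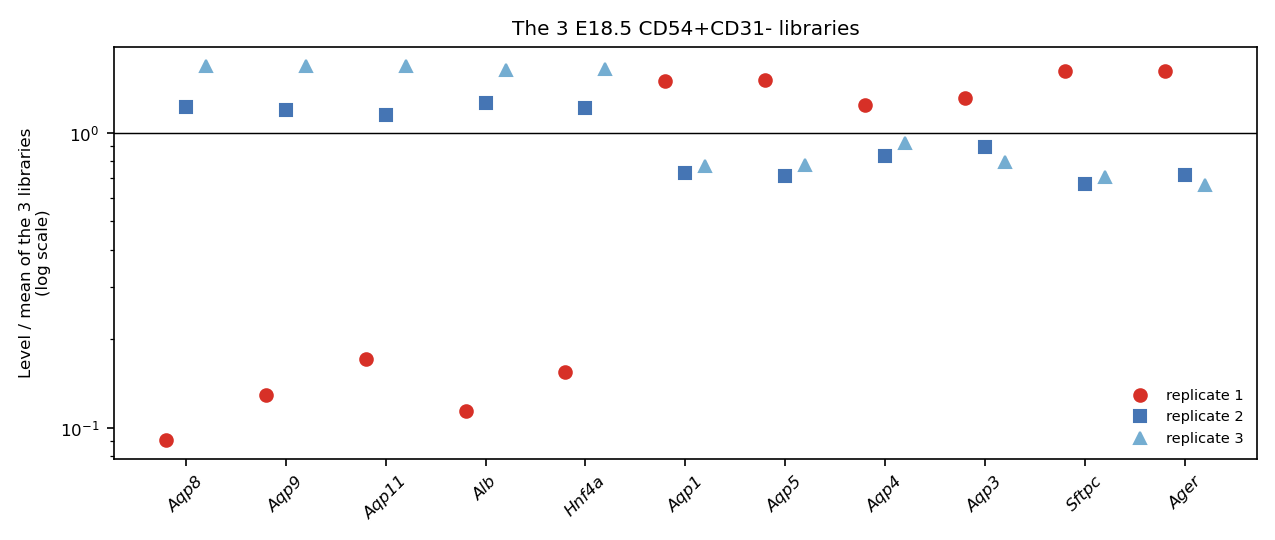
Levels in the 3 E18.5 CD54+CD31- libraries, each divided by the mean of the 3 (log axis). Replicate 1 is low for Aqp8, Aqp9, Aqp11, Alb, and Hnf4a and high for Aqp1, Aqp5, Aqp4, Aqp3, Sftpc, and Ager.

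Set against albumin in the same library, Aqp8, Aqp9, and Aqp11 varied less among the E18.5 replicates than their levels did. Per 1000 Alb counts, Aqp8 had 0.213, 0.226, and 0.186 counts at E14.5 and 2.59, 3.15, and 3.35 counts at E18.5, a ratio of means of 14.5. Aqp9 had 0.291, 0.196, and 0.218 counts at E14.5 and 0.579, 0.482, and 0.524 at E18.5, and Aqp11 had 0.676, 0.600, and 0.594 counts against 1.18, 0.718, and 0.813. The 2 ages did not overlap for any of the 3 genes, and the test used could not pass the threshold (exact permutation tests, 2-sided p = 0.1 each, the smallest that 3 against 3 allows). The share of all genes whose ratios to Alb did not overlap was not measured, so this is not read as particular to these 3 genes. E18.5 replicate 1 gave the lowest of the 3 E18.5 ratios for Aqp8 and the highest for Aqp9 and Aqp11. With the summed hepatoblast markers other than Cdh1 in place of Alb, the ratios of means were 18.9 for Aqp8, 2.91 for Aqp9, and 1.88 for Aqp11, against 2.25 and 1.45 for the last 2 with Alb. The ratio was chosen after the values had been seen, and Alb itself can change with age. Alb was at 40910, 46600, and 46640 CPM at E14.5 and at 2410, 26650, and 34550 CPM at E18.5. A gene that fell less than Alb therefore has a higher ratio at E18.5.

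**Figure D5:**
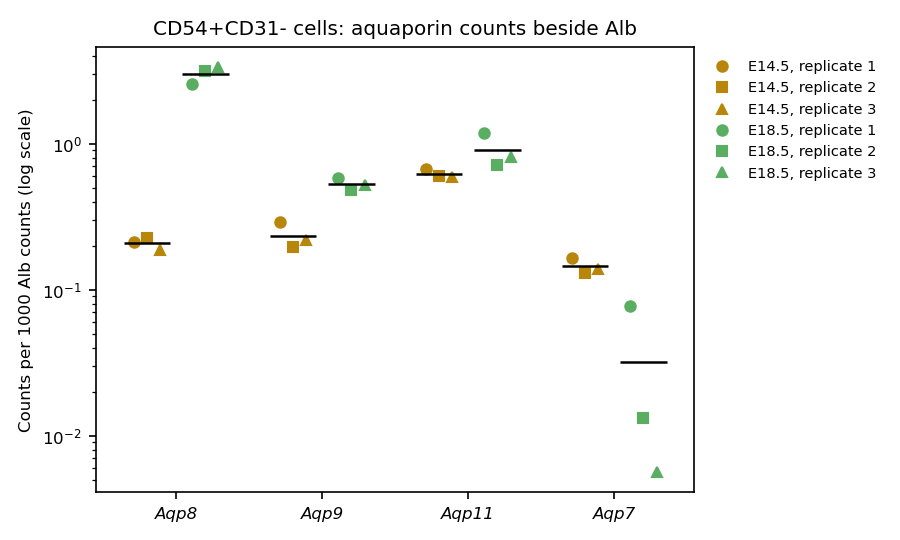
Counts of Aqp8, Aqp9, Aqp11, and Aqp7 per 1000 counts of Alb in each CD54+CD31- library (log axis, 1 point per library, bar at the mean of 3). Aqp8 is 14.5 times higher at E18.5, Aqp9 and Aqp11 are higher by 2.25 and 1.45 times, and Aqp7 is lower.

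To order all 4 populations, the E18.5 libraries were also tested against the other 2 populations, from which they differ in age and phenotype together. Against P2 cells, Aqp8 was higher by 7.71 on the log2 scale (SE 1.01, edgeR adjusted p = 2.353e-05) and Aqp3 fell by 3.32 (SE 0.32, edgeR adjusted p = 1.386e-06). Neither Aqp9 (-0.99, SE 0.61, edgeR adjusted p = 0.1546) nor Aqp11 (0.62, SE 0.55, edgeR adjusted p = 0.3104) passed, so 2 of 4 were called where 80.6% of 16643 genes were. Without E18.5 replicate 1 the difference was 8.26 for Aqp8, -3.56 for Aqp3, and -0.46 for Aqp9 (edgeR adjusted p = 0.09675), and Aqp11 passed, higher by 1.13 (edgeR adjusted p = 0.000238). Against CD31+ cells, Aqp8 was higher by 8.01 (SE 1.02, edgeR adjusted p = 3.158e-05), Aqp11 by 2.92 (SE 0.60, edgeR adjusted p = 0.001053), and Aqp9 by 2.42 (SE 0.65, edgeR adjusted p = 0.006135). Aqp3 differed by 0.12 (SE 0.30, edgeR adjusted p = 0.7404), and 3 of 4 members were called where 68.5% of genes were. Without E18.5 replicate 1 these 3 differences were 8.56, 3.43, and 2.94, all called, and that of Aqp3 was -0.12.

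The other 7 genes of the family were also read. Aqp7, an aquaglyceroporin that lies on chromosome 4 as Aqp3 does, was at 6.781, 6.071, and 6.485 CPM in E14.5 CD54+CD31- cells and at most 0.35 CPM in every other library, including those at E18.5, where it fell by 4.53 on the log2 scale (SE 0.30, edgeR adjusted p = 3.875e-05) and fell by 4.39 without E18.5 replicate 1. Its levels thus followed neither those of Aqp3 nor, at E18.5, those of Aqp8. Aqp5, a water channel of glands and lung alveoli, had 7096, 4017, and 4107 counts in the E18.5 libraries and at most 8 counts in any E14.5 library. Aqp4, a water channel best known from brain, was at 9.772, 6.585, and 7.273 CPM at E18.5 and 1.045, 0.7865, and 0.8137 CPM in E14.5 CD54+CD31- cells, a rise of 3.34 on the log2 scale (SE 0.25, edgeR adjusted p = 6.229e-05) and of 3.13 without E18.5 replicate 1, with at most 1 count in a P2 or CD31+ library. Both had their highest value in E18.5 replicate 1, the library with the most lung epithelium RNA. Mip, the lens member, stayed under 1 CPM and overlaps a long noncoding RNA gene on the opposite strand, so that its reads are uncertain. Its call in P2 against E14.5 CD54+CD31- cells was lost with the authors' library factors (edgeR adjusted p = 0.05194). The call was also lost without P2 replicate 1 or 3 or E14.5 CD54+CD31- replicate 1 or 2. Aqp2, Aqp6, and Aqp12 did not pass the filter on low counts.

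By a rule on likeness, the 3 genes whose log2 levels over the 12 libraries lay closest to each member were found, with the root mean square (RMS) difference as the measure and no test. Aqp8 had the closest, Hsd17b13, Uox, and Fetub, with RMS differences of 0.213, 0.266, and 0.274, beside an RMS of 2.31 for its own profile about its mean. Hsd17b13 encodes a lipid droplet protein of hepatocytes, Uox encodes urate oxidase, and Fetub a plasma protein made in liver. Aqp11 was closest to the fatty acid elongase gene Elovl6 (0.286), the peroxisomal gene Ehhadh (0.298), and the mitochondrial carrier gene Slc25a13 (0.337). Aqp3 was closest to the co-chaperone gene Bag2 (0.260), to Emc9 (0.297), and to Frat1 (0.341). The closest genes were farther away for Aqp1, with Msn (0.451), which encodes the membrane linker moesin, Cd55 (0.454), and Cfap43 (0.467), and for Aqp9, with Ahcy (0.537), Garem1 (0.585), and Angptl4 (0.595).

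Genes of red cell membrane permeability were read beside Aqp1 and Aqp9. The list held 10 genes, of which Piezo1 had 0 counts in all 12 libraries and was not tested. In P2 against E14.5 CD54+CD31- cells, 8 of 9 passed, 6 higher and 2 lower, with a median of 2.43 on the log2 scale beside -0.01 over all genes, of which 70.0% passed, 33.8% higher and 36.1% lower. Kcnn4, a potassium channel that acts in red cell dehydration, was higher by 3.09 (SE 0.23), the urea transporter gene Slc14a1 by 2.93 (SE 0.29), and Rhag, of the Rh complex, by 2.57 (SE 0.19). The glucose transporter gene Slc2a1 fell by 1.17 (SE 0.20), and the anion exchanger gene Slc4a1 fell by 0.91 (SE 0.25). The Slc4a1 call was lost with all 12 libraries in one fit (-0.89, edgeR adjusted p = 0.1547). Kcnn4, Slc14a1, Rhag, Car1, and Slc29a1 are on a list that the study drew from these same libraries, so their direction is not independent evidence. Against CD31+ cells, 8 of 9 passed, 7 higher in P2 cells and 1 lower, beside 73.7% of all genes. Of the same 9 genes, 7 passed between CD31+ and E14.5 CD54+CD31- cells, 2 higher and 5 lower, beside 65.6% of all genes, with 4 called without CD31+ replicate 1. At E18.5, 4 of 9 fell, beside 69.4% of all genes that passed and 33.5% that fell, with 2 called without E14.5 CD54+CD31- replicate 3 or without E18.5 replicate 3, 6 called without E18.5 replicate 1, and 7 called with the replicate number as a block.

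Genes of bile formation were read beside Aqp8, which hepatocytes hold at the canalicular side. Of 9 genes, 8 passed in P2 against E14.5 CD54+CD31- cells, beside 70.0% of all genes, and 7 of these fell, beside 36.1% of all genes, among them the bile salt export pump gene Abcb11, which fell by 6.63 (SE 0.17), and the conjugate exporter gene Abcc2, which fell by 6.39 (SE 0.22). Abcb4, the phospholipid exporter gene, was the exception and was higher in P2 cells by 1.61 (SE 0.12), at 315.7, 309.7, and 318.9 CPM against 94.56, 110.6, and 100.2 CPM. In P2 against CD31+ cells, and in CD31+ against E14.5 CD54+CD31- cells, 8 of 9 passed, 1 higher and 7 lower in each, beside 73.7% and 65.6% of all genes. At E18.5, 4 of 9 passed, 2 higher and 2 lower, a smaller share than the 69.4% of all genes, with 7 called without E18.5 replicate 1 and 2 without E14.5 CD54+CD31- replicate 1. Slc10a1, the bile salt uptake gene, rose by 3.36 (SE 0.70) and by 3.84 without E18.5 replicate 1, Cftr, a chloride channel gene of bile ducts and lung, went from at most 0.2825 CPM to between 74.44 and 107.7 CPM, and the sterol exporter gene Abcg8 fell by 2.39 (SE 0.69), a call that was lost without E14.5 CD54+CD31- replicate 1, and fell by 1.89 without E18.5 replicate 1. Abcb11, at 7.228, 88.49, and 120.4 CPM at E18.5, was low in replicate 1 as Aqp8 was.

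Of 6 measured genes of glycerol handling, read beside Aqp3 and Aqp9, 4 passed in P2 against E14.5 CD54+CD31- cells, 3 higher and 1 lower, a share near the 70.0% of all genes. Lipe, also on this list, had 0 counts in all 12 libraries. The mitochondrial glycerol phosphate dehydrogenase gene Gpd2 rose by 1.65 (SE 0.12) and Mgll, a monoacylglycerol lipase gene, by 1.53 (SE 0.19), whereas the cytosolic dehydrogenase gene Gpd1 was at 7.003 to 7.644 CPM in E14.5 CD54+CD31- cells and at most 0.04586 CPM in P2 cells. The glycerol kinase gene Gk, whose product traps the glycerol taken up, was at 17.01, 17.08, and 17.13 CPM in P2 cells and 15.26, 18.81, and 17.90 CPM in E14.5 CD54+CD31- cells and overlapped between them, unlike Aqp9. The counts were 4 of 6 in P2 against CD31+ cells, 2 higher and 2 lower, and 6 of 6 in CD31+ against E14.5 CD54+CD31- cells, 4 higher and 2 lower, beside 73.7% and 65.6% of all genes. At E18.5, 4 of 6 rose and 0 fell, beside 35.9% and 33.5% of all genes, with Gk higher by 1.81 (SE 0.25) and by 2.04 without E18.5 replicate 1, and 5 genes passed without E18.5 replicate 1.

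Of 13 measured genes of cell volume and osmolytes, 10 passed in P2 against E14.5 CD54+CD31- cells, 4 higher and 6 lower, a share near the 70.0% of all genes. The list held 16 genes, of which Slc5a3, Akr1b3, and Oxsr1 had 0 counts in all 12 libraries, and the reason was not tested. The volume-regulated anion channel gene Lrrc8c rose by 2.98 (SE 0.11), and the betaine transporter gene Slc6a12 fell by 6.41 (SE 0.22) and the potassium chloride cotransporter gene Slc12a7 fell by 4.06 (SE 0.12). In CD31+ cells, where Aqp1 was highest, Lrrc8c was also higher than in E14.5 CD54+CD31- cells, by 3.99 (SE 0.11), as was Stk39, a kinase gene of cotransporter control, by 2.73 (SE 0.26), and 12 of 13 genes passed, 7 higher and 5 lower, beside 65.6% of all genes. In P2 against CD31+ cells 8 passed, 1 higher and 7 lower, beside 73.7% of all genes. At E18.5, 9 passed, 7 higher and 2 lower, a share near the 69.4% of all genes, with Slc12a2, the sodium potassium chloride cotransporter gene, higher by 4.96 (SE 0.18) and by 4.79 without E18.5 replicate 1, and 10 genes passed without E18.5 replicate 1.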

How the data were processed

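RNA was sequenced by the authors from sorted FL cells after enzymatic removal of ribosomal RNA (SMARTer Stranded Total RNA-Seq, Pico Input), and the submitters' processing notes name cutadapt 1.11, STAR 2.5.0a, featureCounts 1.4.6-p3, and R 3.5.1 with DESeq2, on GRCm38. Whether counting used strand, and how reads with several alignments were treated, is not given in the sources used here. The files deposited by the authors hold raw whole-number counts, used for all tests, and a score per gene that equals the count times 1 factor per library, rounded, from which only that factor was read.

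The counts held 38127 genes, of which 37932 were found in GENCODE vM21 for coordinates and exon lengths. Totals were 40714017 to 64368883 counts per library, and with 3 libraries per population the spread between libraries, not counting error, sets the precision. No 2 replicates agreed within counting error (lowest chi-square divided by its degrees of freedom, 38.6), and none was merged.

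Tests used edgeR 4.0.16 in R 4.3.3 (TMM, filterByExpr, quasi-likelihood test) with Benjamini-Hochberg adjustment over all genes kept. The 9 E14.5 libraries were fitted together, the 6 CD54+CD31- libraries in a second fit, and all 12 libraries for the 2 comparisons of E18.5 cells with P2 and CD31+ cells. Standard errors (SE) of log2 fold changes came from the fold change and the F statistic. Levels are CPM over TMM-adjusted library sizes of all 12 libraries, and values after ± are SDs. The scripts were tested on simulated data. Sequences are from RefSeq, whose upstream windows matched all 5 genes.

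The members and gene lists were chosen with earlier results of these data known. Named genes were the family, for each list those of largest change that account for its counts, and the 3 genes of closest profile (log2 of CPM + 1) to each member. Alternatives were DESeq2 1.42.0, its size factors in edgeR, the authors' factors, no filter, at least 10 counts in every library, genes above 1% left out, other sets of libraries in the fit, the replicate number as a block, and each library left out. CPM without TMM and the summed hepatoblast markers in place of Alb were chosen after seeing the data. Replicate numbers come from the labels. Same-numbered CD31+ and E14.5 CD54+CD31- libraries deviated together in all 3 pairs (correlations of 0.121 to 0.333 across genes), so the numbers may pair those samples. The main fit had no block, and adding it changed no call on a member in that comparison.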

Additional observations from a re-analysis of the deposited data

How the results depend on the processing

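For Aqp3 and Aqp11 in the 4 main comparisons, the direction and the side of the threshold were the same under the alternatives run. A filter of at least 10 counts in every library left fewer aquaporin genes other than Aqp1 to call. Aqp8, with as few as 8 counts, and the low genes Aqp4, Aqp7, and Mip no longer entered. In P2 against E14.5 CD54+CD31- cells, 3 were called, in place of 7 of 7 tested over the whole family. Of all genes, 9118 of 12016 were called there, in place of 10815 of 15461. In CD31+ against E14.5 CD54+CD31- cells, 3 were called, in place of 6 of 7 tested. Of all genes, 8418 of 12016 were called in that comparison, in place of 10150 of 15461. With all 12 libraries in one fit, Aqp9 in P2 against E14.5 CD54+CD31- cells was 1.04 higher and not called. The authors' factors gave -1.96 for Aqp1 and -0.077 for Aqp8 in P2 against CD31+ cells, where they moved the median of all genes by -0.369 and the share of calls that were higher from 46.6% to 33.9%. The medians moved by -0.264 in P2 against E14.5 CD54+CD31- cells (48.3% to 38.2% higher), by 0.106 in CD31+ against E14.5 CD54+CD31- cells, and by 0.234 between the ages.

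Leaving out 1 library at a time gave Aqp8 from -0.56 (without P2 replicate 1) to 0.67 in P2 against CD31+ cells, and between the ages from 2.44 to 3.59 for Aqp8, the call being kept only without E18.5 replicate 1, and from -0.38 to 0.73 for Aqp9. Aqp3 in E18.5 against CD31+ cells, at 0.12, ranged from -0.18 without CD31+ replicate 3 to 0.38 without CD31+ replicate 2, and was -0.12 without E18.5 replicate 1. With the replicate number as a block, the difference between the ages was 2.42 for Aqp8 and -0.23 for Aqp9, neither called, and 10329 genes were called in place of 11014. Same-numbered libraries correlated at 0.017 to 0.069 between the ages, at -0.02 to 0.084 for P2 with E14.5 CD54+CD31- cells, and at 0.015 to 0.336 for P2 with CD31+ cells. These values do not settle whether the numbers pair those samples. The cause of these changes was not tested. The number of libraries limits the E18.5 results, in which replicate 1 stands apart.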
